A study of Mus musculus with 6 samples.

Results

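The 10 genes described here are 5 dual-specificity phosphatase genes (Dusp2, Dusp4, Dusp5, Dusp6 and Dusp10), 3 Sprouty genes (Spry1, Spry2 and Spry4) and the ETS transcription factor genes Etv4 and Etv5. They were taken as every probe set annotated to exactly 1 of these symbols, which gave 18 of the 45037 probe sets tested and 10 of the 18193 genes named. Expression was measured in mouse leukaemia cells driven by BCR-ABL1, the tyrosine kinase fusion that the Philadelphia chromosome creates, on Affymetrix 3' expression arrays. There were 3 arrays of AID-/- leukaemia, which lacks activation-induced cytidine deaminase, an enzyme that edits immunoglobulin genes by turning cytosine into uracil. They were set against 3 arrays of AID+/+ leukaemia, and both groups were labelled as Balb/c. The labels give no age, treatment or sex, and they call the replicates biological without naming animals, so a p-value here covers no more than the scatter of these 6 arrays.

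The ERK kinases are activated by the RAS, RAF and MEK relay downstream of growth factor, cytokine and B-lineage receptors, and BCR-ABL1 feeds into the same relay. Active ERK switches on genes that restrain it. MAP kinase phosphatases of the DUSP family remove phosphates from ERK, JNK or p38, and Sprouty proteins act further upstream, between receptors and RAF. Etv4 and Etv5 encode ETS factors of the PEA3 subfamily, which are commonly used as transcriptional readouts of ERK activity.

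Promoter sequences are shown for Dusp5, the 1 gene of the set that was called higher in AID-/- leukaemia. They are also shown for Dusp6 and Spry2, which were among the 4 genes called lower. Each is the 250 bases before the gene's RefSeq start on GRCm38.p6, written 5′ to 3′ along the gene. Dusp5 lies at chr19:53528895-53529144, plus strand, Dusp6 at chr10:99262981-99263230, plus strand, and Spry2 at chr14:105896820-105897069, minus strand. Capitals mark matches, on either strand, to the CArG box (the site of serum response factor), to GGAAGT (an ETS core) and to TGACG (a half-site of cyclic AMP response factors).
Dusp5: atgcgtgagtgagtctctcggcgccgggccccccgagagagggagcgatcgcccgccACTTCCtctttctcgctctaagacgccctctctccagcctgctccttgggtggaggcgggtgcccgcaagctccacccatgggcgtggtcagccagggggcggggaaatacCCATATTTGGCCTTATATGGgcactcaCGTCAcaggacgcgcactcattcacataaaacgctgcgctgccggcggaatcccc
Dusp6: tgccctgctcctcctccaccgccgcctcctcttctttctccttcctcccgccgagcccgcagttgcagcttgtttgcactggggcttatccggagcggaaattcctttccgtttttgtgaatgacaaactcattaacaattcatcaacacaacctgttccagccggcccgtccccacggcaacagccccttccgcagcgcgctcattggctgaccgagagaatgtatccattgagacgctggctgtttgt
Spry2: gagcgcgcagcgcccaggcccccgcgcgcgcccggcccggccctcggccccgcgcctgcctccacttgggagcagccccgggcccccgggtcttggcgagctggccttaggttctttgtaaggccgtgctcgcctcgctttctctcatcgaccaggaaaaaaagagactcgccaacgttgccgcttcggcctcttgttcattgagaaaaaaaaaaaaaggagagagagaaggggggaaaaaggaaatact
The Dusp5 promoter held 2 adjacent CArG boxes, CCATATTTGG and CCTTATATGG, which began 82 and 72 bases before the start. It also held 1 GGAAGT match, 193 bases before the start, and 1 TGACG half-site, 55 bases before it. A CArG box was found in 1.47% of the 32851 RefSeq promoters of this length, GGAAGT in 19.7% and TGACG in 17.8%. The table held 8 promoters of 7 of the 10 genes, without Dusp4, Spry4 and Etv4. Among these 8, the Dusp5 promoter was the only one with a CArG box or TGACG, and GGAAGT was found in it and in 1 of the 2 Etv5 promoters. A match is a run of letters and does not show binding.

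The feedback genes that passed the test were lower in AID-/- leukaemia, with the exception of Dusp5, which was higher. At the brightest probe set of each gene (the one with the highest mean over the 6 arrays), 4 of 10 genes fell (Dusp6, Dusp10, Spry2 and Etv4), 1 rose (Dusp5) and 5 did not pass at an adjusted p under 0.05 (limma, Benjamini-Hochberg over all 45037 probe sets). Over all 18193 genes the same fit called 17.1%, with 9.49% higher and 7.66% lower. The median difference, AID-/- minus AID+/+, was -0.40 on the log2 scale for the 10 genes and -0.03 over all genes. The 10 genes were chosen with earlier results of these data known, so this gap is a description and was not tested. The 18 probe sets include more than 1 for 5 of the genes, so they are not independent. Of the 18, 16 had a negative difference and 2 a positive one, which 18929 of all 45037 probe sets had. Among the 18, 6 were called lower and 1 was called higher. Of all probe sets 14.6% were called, 7.39% lower and 7.24% higher. Of the 10 genes, 7 had groups that did not overlap, as did 36.5% of all genes, and 10 of the 18 probe sets did, against 32.9% of all probe sets. Most of these calls rest on all 6 arrays: 1 gene was called lower without AID+/+ replicate 1 and 1 without AID+/+ replicate 2, 2 were without AID-/- replicate 2, and 0 were called higher without any single AID+/+ array. A linear model without variance moderation called 0 higher and 1 lower.

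**Figure D1:**
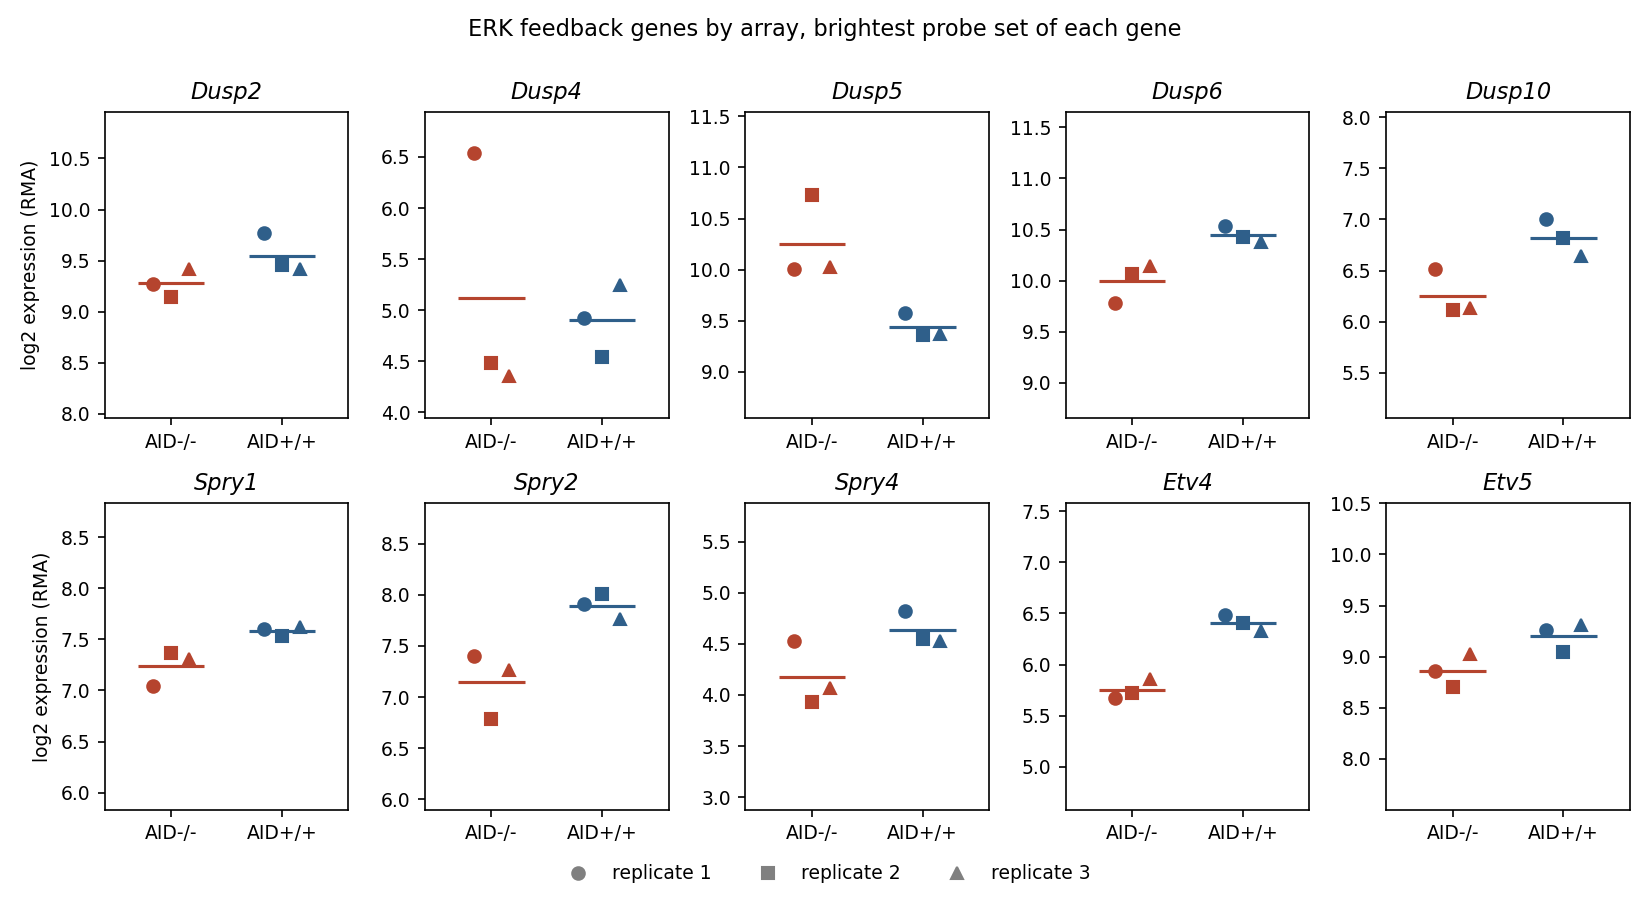
RMA expression (log2) of the brightest probe set of each of the 10 genes in 3 AID-/- arrays (red, left) and 3 AID+/+ arrays (blue, right); lines are group means, symbols mark the replicate number, and each panel spans the same log2 range at its own level. Dusp5 was higher in every AID-/- array, Dusp6, Dusp10, Spry1, Spry2, Etv4 and Etv5 were lower in every AID-/- array, and Dusp4 was high in AID-/- replicate 1 alone.

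Dusp5 encodes a nuclear phosphatase that acts on ERK and not on JNK or p38. Its log2 expression was 10.002, 10.73 and 10.02 in AID-/- replicates 1 to 3, against 9.57, 9.36 and 9.37 in the AID+/+ arrays. All AID-/- arrays lay above all AID+/+ arrays, and AID-/- replicate 2 lay above the other two. The difference was 0.82 (SE 0.19), or 1.76-fold, with a limma adjusted p of 0.0239. The call was lost without any single AID+/+ array, at adjusted p of 0.0524, 0.0796 and 0.0852.

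Dusp6 encodes a cytoplasmic phosphatase that is specific for ERK. Its log2 expression was 9.78, 10.06 and 10.14 in AID-/- arrays, against 10.53, 10.43 and 10.38 in AID+/+ arrays. The groups did not overlap, with AID-/- replicate 3 the nearest to the AID+/+ arrays. The difference was -0.45 (SE 0.12), or 1.37-fold lower (limma adjusted p = 0.0346). Only the fit without AID-/- replicate 3 kept the call among those with 1 array left out, and the other 5 gave adjusted p of up to 0.108.

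Dusp5 and Dusp6 thus moved in opposite directions, a contrast chosen after their values were seen. Dusp5 minus Dusp6 within each array was 0.22, 0.67 and -0.12 in AID-/- leukaemia, against -0.96, -1.07 and -1.004 in AID+/+ leukaemia. Levels of different probe sets cannot be compared, but the change of this gap between groups can, and it was 1.27 on the log2 scale. An exact permutation test over the 20 splits of the arrays gave a two-sided p of 0.1, the lowest that these splits allow. That test cannot weigh the contrast, because both genes were picked for changes that do not overlap between the groups.

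Dusp10 encodes a phosphatase that prefers JNK and p38 over ERK, and both of its probe sets were lower in AID-/- leukaemia. At the brighter one, 1417164_at, log2 expression was 6.51, 6.11 and 6.13 in AID-/- arrays, against 7.001, 6.82 and 6.64 in AID+/+ arrays, a difference of -0.57 (SE 0.14, limma adjusted p = 0.0310). At the dimmer one, 1417163_at, it was 3.81, 3.35 and 3.73 in AID-/- arrays, against 5.03, 4.31 and 4.40 in AID+/+ arrays, a difference of -0.95 (SE 0.20, limma adjusted p = 0.0164). The groups were separate at both. The call at the dimmer probe set was kept whichever array was left out. The brighter probe set was called in only 2 of the 6 such fits, those without AID-/- replicate 1 and without AID+/+ replicate 3, and the highest adjusted p was 0.102. The dimmer probe set had means of 3.63 in AID-/- and 4.58 in AID+/+ leukaemia, below the median probe set at 4.89. A linear model without variance moderation called neither probe set (adjusted p = 0.144 at the dimmer and 0.154 at the brighter).

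Dusp2 and Dusp4, which encode nuclear phosphatases, did not pass. Dusp2 was at 9.27, 9.15 and 9.42 in AID-/- arrays, against 9.77, 9.46 and 9.41 in AID+/+ arrays, a difference of -0.27 (95% interval -0.56 to 0.02). AID-/- replicate 3 lay level with AID+/+ replicate 3. Dusp4 was at 6.53 in AID-/- replicate 1 but at 4.48 and 4.35 in replicates 2 and 3, against 4.92, 4.54 and 5.25 in AID+/+ arrays. Its difference of 0.22 (95% interval -0.97 to 1.41) rested on that 1 array: without AID-/- replicate 1 it was -0.48, with a limma adjusted p of 0.163. No other gene of the set had AID-/- replicate 1 as far from the rest.

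**Figure D2:**
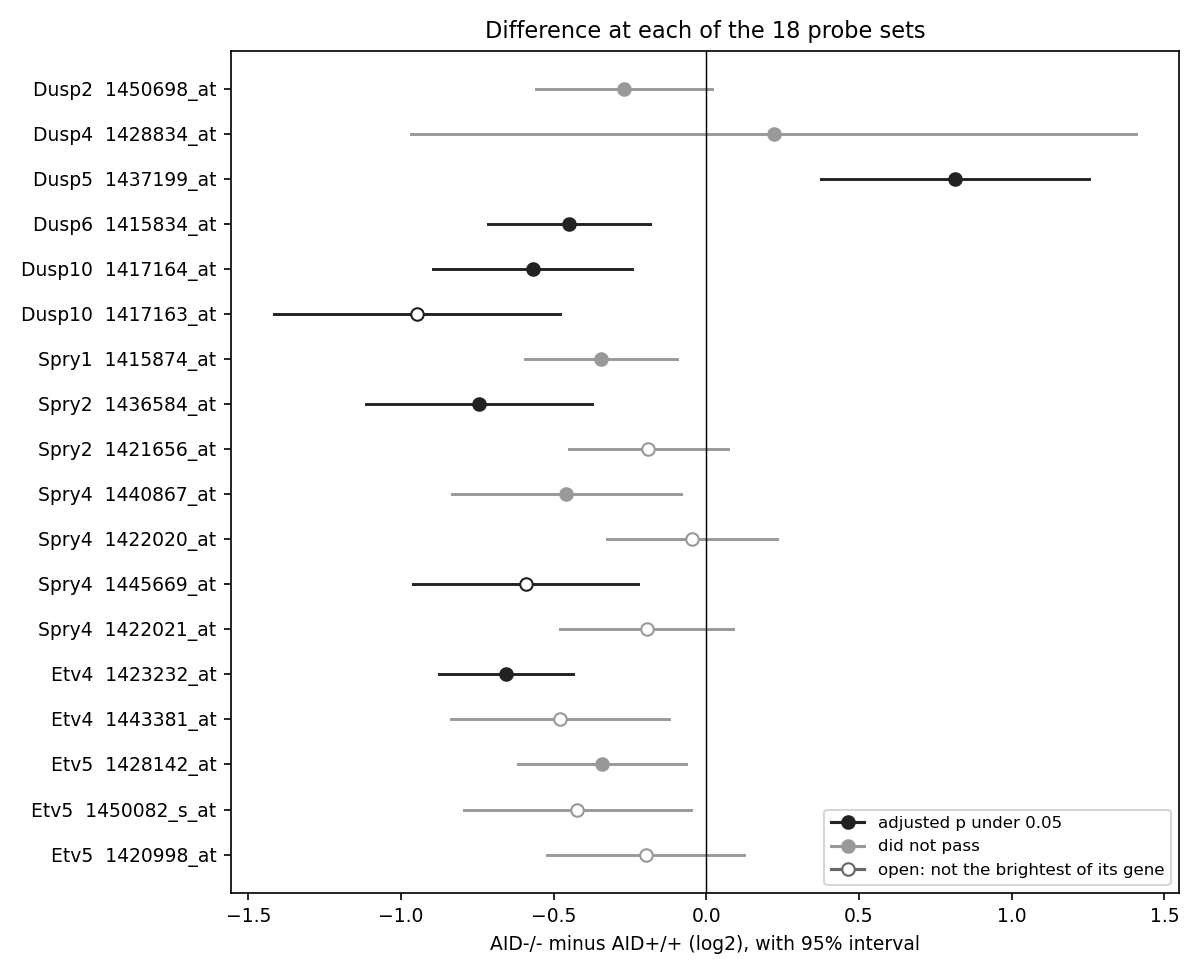
Difference between AID-/- and AID+/+ leukaemia (log2, points) with its 95% interval (lines) at all 18 probe sets; black probe sets passed at an adjusted p under 0.05, grey ones did not, and open points are not the brightest probe set of their gene. All differences but those of Dusp4 and Dusp5 lie left of 0, and the interval of Dusp4 is the widest.

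The Sprouty genes all had lower means in AID-/- leukaemia, and 1 of the 3 passed at its brightest probe set. Spry2, an inhibitor of receptor tyrosine kinase signalling to RAS and ERK, was at 7.41, 6.78 and 7.26 in AID-/- arrays, against 7.91, 8.01 and 7.77 in AID+/+ arrays. The groups did not overlap, with AID-/- replicate 2 the lowest. The difference was -0.74 (SE 0.16), or 1.67-fold lower, with a limma adjusted p of 0.0170. Without AID+/+ replicate 1 or 2 the adjusted p was 0.0591 or 0.0647. The other Spry2 probe set was dim in both groups, at means of 3.47 in AID-/- and 3.66 in AID+/+ leukaemia, and did not pass (difference -0.19).

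Spry1, a related inhibitor, was at 7.05, 7.37 and 7.31 in AID-/- arrays, against 7.61, 7.53 and 7.62 in AID+/+ arrays. The groups were separate, but the difference of -0.34 (SE 0.11) did not pass (limma adjusted p = 0.0718). Spry4 had 4 probe sets, all with means under 4.7, below the median probe set at 4.89. Its brightest, 1440867_at, was at 4.53, 3.93 and 4.06 in AID-/- arrays, against 4.82, 4.55 and 4.53 in AID+/+ arrays, a difference of -0.46 (SE 0.16, limma adjusted p = 0.107). AID-/- replicate 1 overlapped the AID+/+ group, and without it the difference was -0.64 (limma adjusted p = 0.0146). Of the other 3, 1445669_at was at 3.77, 3.44 and 3.20 in AID-/- arrays, against 3.84, 4.17 and 4.19 in AID+/+ arrays. Its groups were separate and it was called lower, with a difference of -0.59 (limma adjusted p = 0.0428) that passed in only 2 of the 6 fits with 1 array left out. The remaining probe sets of Spry4 differed by -0.20 and -0.05.

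Etv4 had the smallest p of the 18 probe sets. At its brighter probe set, log2 expression was 5.67, 5.72 and 5.86 in AID-/- arrays, against 6.49, 6.41 and 6.33 in AID+/+ arrays. The arrays of each group lay close together and the groups were well separated. The mean of the AID-/- arrays was 5.75 ± 0.10, against 6.41 ± 0.08 for the AID+/+ arrays (SD, n = 3 each), a difference of -0.66 (SE 0.10), or 1.58-fold lower, with a limma adjusted p of 0.00283. The call was kept in all 15 alternative fits, with adjusted p of up to 0.0316. The dimmer Etv4 probe set was at 3.25, 3.45 and 3.48 in AID-/- arrays, against 3.66, 3.73 and 4.23 in AID+/+ arrays. It also had separate groups, with AID+/+ replicate 3 above the rest, and a difference of -0.48 that did not pass (limma adjusted p = 0.0810).

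Etv5, the relative of Etv4, did not pass at any of its 3 probe sets. The brightest was at 8.86, 8.70 and 9.03 in AID-/- arrays, against 9.26, 9.04 and 9.31 in AID+/+ arrays, a difference of -0.34 (SE 0.12, limma adjusted p = 0.101). The groups were separate by a narrow margin, between AID-/- replicate 3 and AID+/+ replicate 2. At 1450082_s_at it was 6.81, 6.68 and 7.06 in AID-/- arrays, against 7.60, 7.04 and 7.19 in AID+/+ arrays. At 1420998_at it was 6.95, 6.88 and 6.94 in AID-/- arrays, against 7.45, 6.94 and 6.98 in AID+/+ arrays. Both had overlapping groups, with AID+/+ replicate 1 the highest array, and differed by -0.42 and -0.20. Whether Etv4 and Etv5 differed from each other in their change was not tested.

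**Figure D3:**
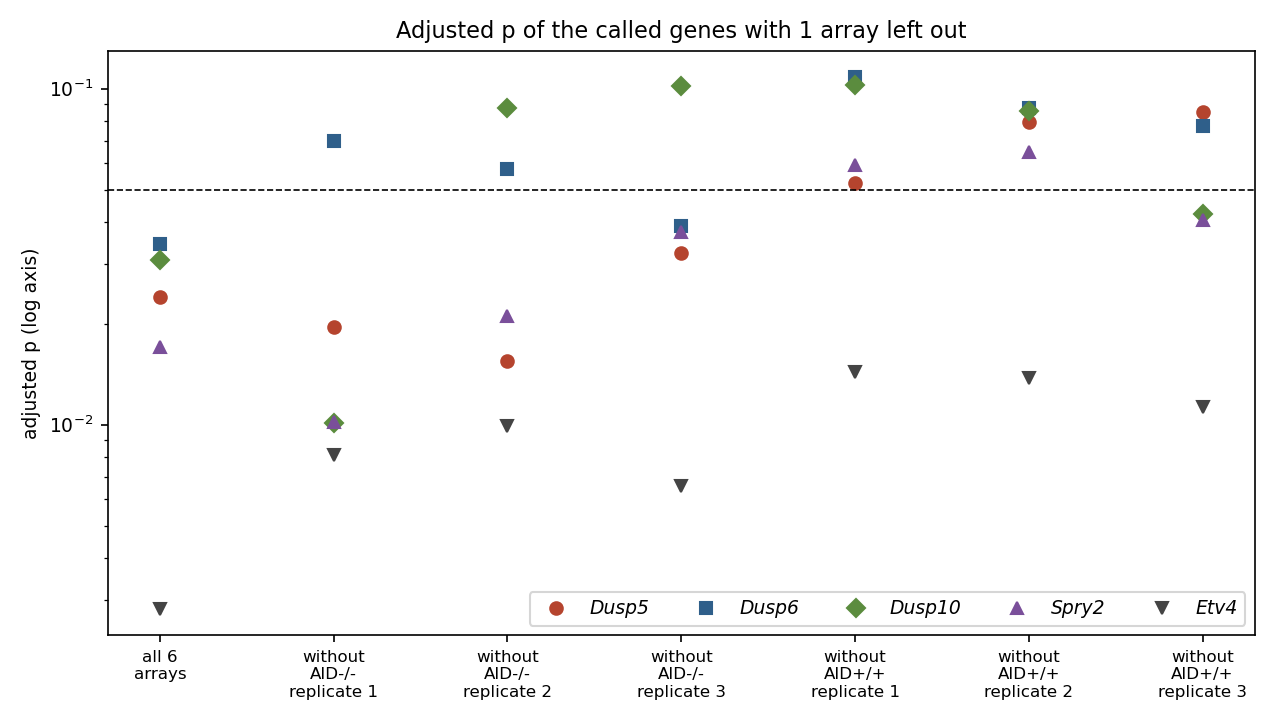
Limma adjusted p (log axis) of the 5 genes called at their brightest probe set, with all 6 arrays and with each array left out in turn; the dashed line is the threshold of 0.05. Etv4 stays below the line throughout, while Dusp5, Dusp6, Dusp10 and Spry2 cross it in 3, 5, 4 and 2 of the 6 fits.

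The profiles most like those of Etv4 and Spry2, the 2 genes with the smallest p at their brightest probe sets, were taken as those with the smallest root mean square difference between gene-centred log2 values over the 6 arrays, among 18192 other genes. For Etv4 these were Haghl (0.024), Ccdc57 (0.040) and Uckl1 (0.050), and for Spry2 they were Slc12a3 (0.066), Arhgap17 (0.069) and Dleu2 (0.081). The arrays fall into 2 groups, so likeness mainly reads the size of the difference between them.

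Genes of the wider pathway were counted in the same way, at the brightest probe set of each gene, where 17.1% of all genes were called. Of 6 further receptor and RAS-ERK feedback inhibitors, 1 fell and 5 did not pass, a share of calls near that over all genes, with a median difference of -0.20. The member that fell was Spred1, a Sprouty-related protein that brings neurofibromin to RAS. It was at 8.997, 8.72 and 9.05 in AID-/- arrays, against 9.64, 9.59 and 9.51 in AID+/+ arrays, a difference of -0.66 (SE 0.11, limma adjusted p = 0.00580). All AID-/- arrays lay below all AID+/+ arrays, the call was kept whichever array was left out, and 5 of the other 7 Spred1 probe sets were also called lower. Errfi1, an inhibitor of EGF receptor family kinases, differed by 0.37 at its brightest probe set without passing (limma adjusted p = 0.0552), while its other probe set was called higher, with a difference of 1.29 (limma adjusted p = 0.0480). The 5 other MAP kinase phosphatases (Dusp1, Dusp7, Dusp8, Dusp9 and Dusp16) gave 0 calls by limma at their brightest probe sets, and 1 of them, Dusp9, had an unadjusted p under 0.05 there (difference -0.35, limma adjusted p = 0.0819). Both dimmer probe sets of Dusp9 were called lower, with differences of -0.46 (limma adjusted p = 0.0111) and -0.56 (limma adjusted p = 0.00678). All 3 Dusp9 probe sets had means below the median probe set in both groups.

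Among 7 atypical dual-specificity phosphatases, 1 fell and 6 did not pass, again near the 17.1% over all genes. Dusp3, which encodes a small phosphatase of ERK and JNK, was at 7.29, 6.64 and 7.51 in AID-/- arrays, against 8.41, 8.33 and 8.79 in AID+/+ arrays. The groups were far apart, with a difference of -1.36 (SE 0.22), or 2.57-fold lower (limma adjusted p = 0.00472). Its other 2 probe sets differed by -0.38 and -0.30 without passing. Dusp22 differed by -0.63, with separate groups, and did not pass (limma adjusted p = 0.0528). Dusp11, an RNA phosphatase, differed by -0.15 at its brightest probe set without passing, while its other probe set was called higher, with a difference of 0.50 (limma adjusted p = 0.00719).

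**Figure D4:**
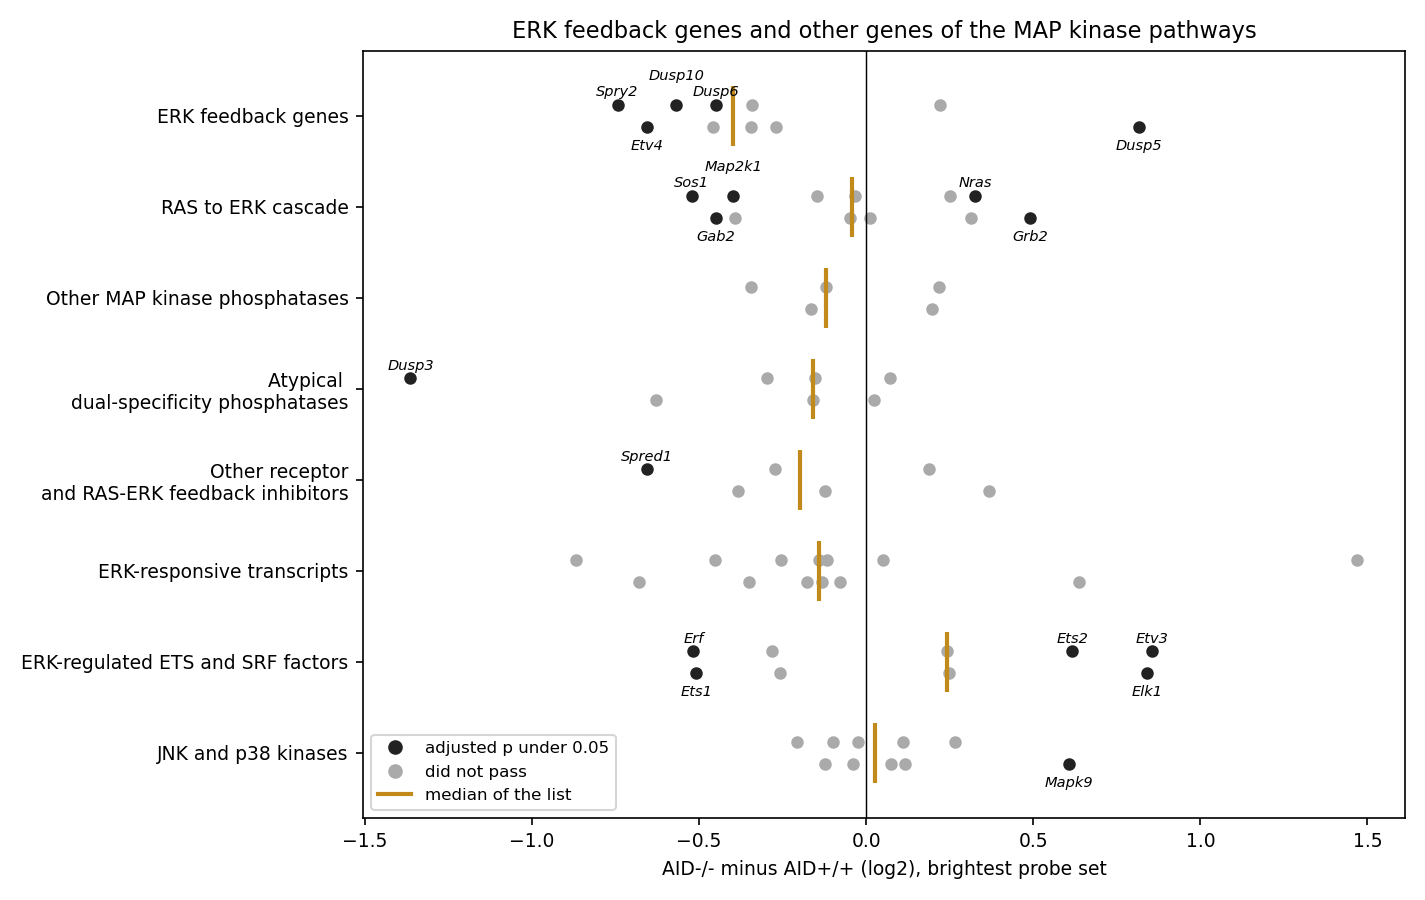
Difference between AID-/- and AID+/+ leukaemia (log2) at the brightest probe set of each gene, for the 10 ERK feedback genes and 7 lists of pathway genes; black points passed at an adjusted p under 0.05 and are named, grey points did not, and vertical bars are list medians. The median of the feedback genes is -0.40, while those of the 7 lists lie between -0.20 and 0.24. Genes and lists were chosen with earlier results of these data known, and the medians were not tested against each other.

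The relay itself did not move one way. Of 12 measured genes of the RAS to ERK cascade, 2 rose, 3 fell and 7 did not pass, with a median of -0.04, against 9.49% higher and 7.66% lower over all genes. The adaptor gene Grb2 rose by 0.49 (SE 0.09), but its other probe set differed by -0.35 without passing. Nras rose by 0.33 (SE 0.09), with 0.82 (called higher) and 0.34 (not called) at its other probe sets. Sos1, an exchange factor that loads RAS with GTP, fell by 0.52 (SE 0.13), and its other 4 probe sets did not pass. The adaptor gene Gab2 fell by 0.45 (SE 0.11) and Map2k1, which encodes MEK1, fell by 0.40 (SE 0.09). Shc1, an adaptor gene counted as not passing (difference -0.39 at its brightest probe set), was called lower at its other probe set, with a difference of -0.53 (limma adjusted p = 0.0138). With 1 array left out, the calls on Nras and Gab2 were kept in 1 of 6 fits each and those on Sos1 and Map2k1 in 2 of 6 each, while that on Grb2 was kept in all 6.

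Factors that read ERK activity were split. Of 9 ERK-regulated ETS and SRF factor genes, 3 rose, 2 fell and 4 did not pass, with a median of 0.24, beside the same 9.49% and 7.66% over all genes. Etv3, an ETS repressor, rose by 0.86 (SE 0.11) at its brightest probe set, and the other 3 differed by 0.05 to 0.29 without passing. Elk1, a partner of serum response factor, rose by 0.84 (SE 0.13), with -0.13 and -0.07 at its other probe sets. Ets2 rose by 0.62 (SE 0.17), a call kept in 1 of the 6 fits with 1 array left out. Ets1 fell by 0.51 (SE 0.10), and 1 of its other 3 probe sets was also called lower. Erf, a repressor that ERK phosphorylates, fell by 0.52 (SE 0.10), while its second probe set differed by 0.09 without passing. The serum response factor gene Srf differed by -0.26 (SE 0.09) and did not pass (limma adjusted p = 0.106).

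Of 13 measured ERK-responsive transcripts, 0 were called by limma at their brightest probe sets, against 17.1% of all genes, 4 had an unadjusted p under 0.05, and the median was -0.14. Egr3, a zinc finger factor, differed by -0.14 there, but its dimmer probe set was called lower, with a difference of -0.76 (limma adjusted p = 0.0184). Some immediate-early genes were uneven among the AID-/- arrays, with an SD of 1.56 for Fos, 1.19 for Egr1 and 1.12 for Fosb, while others were not, such as Ier2 with an SD of 0.14. Fos, a subunit of AP-1, was at 4.66, 5.17 and 7.57 in AID-/- arrays, against 4.46, 4.001 and 4.54 in AID+/+ arrays. Egr1, a relative of Egr3, was at 7.39, 6.48 and 8.84 in AID-/- arrays, against 8.48, 8.36 and 8.48 in AID+/+ arrays. AID-/- replicate 3 was thus the highest array for both Fos and Egr1. In the feedback set, AID-/- replicate 3 was the highest of its group for Dusp2, Dusp6, Etv4 and Etv5, replicate 1 for 4 other genes and replicate 2 for 2. Myc was at 10.66, 10.02 and 9.80 in AID-/- arrays, against 10.82, 10.73 and 10.97 in AID+/+ arrays, and its difference of -0.68 did not pass (limma adjusted p = 0.0614).

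Of 10 measured JNK and p38 kinase genes, which encode substrates of Dusp10 and the kinases upstream of them, 1 rose and 9 did not pass, with a median of 0.02, against 17.1% of all genes called. Mapk9, which encodes JNK2, was at 8.47, 8.64 and 8.58 in AID-/- arrays, against 7.91, 8.07 and 7.89 in AID+/+ arrays. The groups were separate, with a difference of 0.61 (SE 0.10, limma adjusted p = 0.00437). The call was kept in all 15 alternative fits, and 1 of its other 2 probe sets was also called higher. Mapk8, which encodes JNK1, differed by -0.10 at its brightest probe set without passing, while 1 of its other 4 probe sets was called lower, with a difference of -0.55 (limma adjusted p = 0.0295).

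Array values ranged from 2.15 to 14.33 on the log2 scale, and array medians from 4.85 to 4.90. All AID-/- arrays had low Xist (4.35 to 6.02, against 11.93 to 12.18 in AID+/+ arrays) and raised Kdm5d, a Y-linked gene (7.62 to 7.74, against 2.42 to 2.68 in AID+/+ arrays). The effects of sex and of genotype on the genes above therefore cannot be told apart. None of the 10 feedback genes lies on chromosome X or Y, while Elk1 and Dusp9, named above, are X-linked. The 7 measured B-lineage markers averaged 11.53 to 11.70 in AID-/- arrays and 11.19 to 11.39 in AID+/+ arrays. Blnk was the 1 called, with a difference of 2.09. The other B-lineage markers differed by -0.37 (Pax5) to 0.35 (Cd79b) without passing. Of T cell, myeloid, NK, erythroid and stromal or endothelial markers, 4 of 7, 7 of 9, 3 of 3, 3 of 3 and 5 of 6 were below the median value in both groups. Lyz2, a myeloid gene, was called higher (6.02 in AID-/- and 5.26 in AID+/+ leukaemia). Most other myeloid markers were lower in AID-/- leukaemia without passing, such as Adgre1 (difference -0.43), while Itgam was higher without passing (1.06). Klrd1, an NK gene, was called lower (3.19 in AID-/- and 4.06 in AID+/+ leukaemia). The part of these markers in the differences above was not tested. In bulk samples, fewer cells with a transcript and less of it per cell cannot be told apart, and a probe that reads a sequence difference would also appear as a change in level.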

How the data were processed

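RNA from 3 AID-/- and 3 AID+/+ leukaemia samples was hybridised to 1 array each. The deposited values are log2 expression values; per the submitters' processing notes, the authors used RMA (background correction, normalization between arrays and probe-set summary) and Partek, with no versions given. Scanner files and detection calls were not used here. Precision is set by the 6 arrays.

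The table held 45101 probe sets, and its 64 controls were dropped. Symbols came from the platform annotation, updated by Entrez identifier to RefSeq (GRCm38.p6); 34945 probe sets had 1 symbol, 932 several and 9160 none. Differences, AID-/- minus AID+/+, came from a linear model in limma 3.58.1 (R 4.3.3; lmFit and eBayes with group as the single term), tested two-sided and adjusted by Benjamini-Hochberg over 45037 probe sets, with the moderated standard error (SE). The fit was tested on simulated data. Promoter motifs were searched in RefSeq promoters.

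The genes and lists were chosen with earlier results of these data known. Text names all 10 genes, list members that were called (at most 6 a list) and members whose result needed naming; Dusp9, Dusp11, Dusp22, Errfi1, Shc1, Mapk8, Srf, Fos, Fosb, Egr1, Egr3, Ier2 and Myc were chosen after their values were seen. Alternatives were quantile normalization, median centring, leaving out dim probe sets, an intensity trend, no moderation, array weights, a replicate block, averaging probe sets, leaving out each array and, added after seeing the data, adjustment over genes. Some genes of the pathway and marker lists are not reported here.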

Additional observations from a re-analysis of the deposited data

How the results depend on the processing

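Among the 10 feedback genes, 1 was called higher and 4 lower. With 1 array left out these counts were 0 to 1 and 1 to 4, and for their probe sets 0 to 1 higher and 2 to 6 lower. Without any single AID+/+ array 0 genes were called higher, and 1, 1 and 3 were called lower without AID+/+ replicate 1, 2 and 3; without AID-/- replicate 2 it was 2. Of all genes, 9.49% were called higher and 7.66% lower with all 6 arrays. For the pathway genes, 6 were called higher and 7 lower, or 4 to 6 and 3 to 7 with 1 array left out. For all probe sets it was 2091 to 3198 higher and 2216 to 2911 lower, and the lowest counts of lower pathway genes and of all probe sets were those without AID+/+ replicate 3. With no variance moderation, 0 feedback genes were called higher and 1 lower (0 and 1 probe sets), 1 pathway gene was called lower, and 1209 and 1154 of all probe sets were called higher and lower. With the mean of probe sets, 11 pathway genes were called lower, and Grb2, Sos1, Elk1, Ets2, Etv3 and Erf did not pass. The difference of Dusp4 turned to -0.063 with array weights and to -0.48 without AID-/- replicate 1; with 1 array left out it ran from -0.48 to 0.61. That of the Spry4 probe set 1422020_at turned to 0.028 without AID-/- replicate 3 and 0.046 without AID+/+ replicate 3, in a range of -0.12 to 0.046. The causes were not tested. Quantile normalization, median centring, an intensity trend, array weights and adjustment over genes each left 1 feedback gene higher and 4 lower. Averaging probe sets gave 1 and 5, with Spry1 added. Leaving out dim probe sets gave 1 and 5 too, also with Spry1 added. That fit held 9 of the genes, without Spry4, and adjusted over fewer probe sets. Same-numbered replicates did not deviate together (correlations -0.05, -0.07 and 0.03; 1 of 6 arrays correlated best with its own number). With the replicate block, 1 gene was called higher and 4 lower, with Dusp6 lost (adjusted p = 0.0800) and Spry4 gained (adjusted p = 0.0455). Differences between low values, such as those of Spry4, are not well ordered.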
